A study of Sus scrofa with 9 samples.

Results

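Genes that moved the same way under opposite treatments were described here: those whose level in all 6 libraries of manipulated cells, 3 with overexpression of lnc*PLAAT3*-AS and 3 with an siRNA against it, fell to one side of every control library. Of 12721 genes tested, 2467 met this rule, 1237 above control and 1230 below. The cells were primary preadipocytes of pig (*Sus scrofa*), isolated from the back fat of a Rongchang piglet, and every group came from the same animal. After transfection they were given insulin, IBMX and dexamethasone to induce adipogenesis, and RNA was sequenced from whole cultures at day 8. The overexpression cells carried a plasmid with lnc*PLAAT3*-AS, an antisense long non-coding RNA of the *PLAAT3* locus, and are labelled with the genotype overexpression. The siRNA cells are labelled inhibition, and the control cells are labelled WT. The series calls the controls blank. The paper calls them a negative control and, for its cell assays, describes transfection with an si-NC construct, a non-targeting siRNA control. Whether the sequenced controls were blank or received that construct is therefore stated differently by the sources, and an empty-plasmid group was not analysed here. A response common to both manipulations and a peculiarity of the control cultures therefore cannot be told apart, because both comparisons use the same 3 control libraries.

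The genes with the largest shared changes belong to the interferon pathway. Foreign RNA in the cytoplasm is bound by the helicases RIG-I (*DDX58*) and MDA5 (*IFIH1*), and foreign DNA by the enzyme cGAS. Their signals induce type I interferon, which acts through its receptor, JAK kinases and a transcription factor complex that includes STAT2 and IRF9 to switch on interferon-stimulated genes, whose products block virus entry, RNA translation and virus release, and raise antigen presentation on MHC class I. Fibroblast-like stromal cells such as preadipocytes can mount this response.

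Total estimated counts lay between 17276056 and 17495882 per overexpression library, 16724902 and 17130200 per siRNA library and 17099182 and 17434444 per control library. On principal components of log2 CPM (counts scaled to a common library size with TMM factors) the first, with 75.7% of the variance, set the siRNA libraries apart, and the second, with 15.2%, set the control libraries apart from both manipulated groups. Replicates of the overexpression group differed from each other with a variance 1.44 to 1.64 times that of counting alone, and the ratio was 4.88 to 8.91 among siRNA and 5.59 to 13.9 among control replicates. Overexpression replicates were thus closer to each other than those of the other groups. The paper states that cell experiments were repeated independently with cells of the same pig, and that each experiment had independent replicates. How the sequenced libraries correspond to those repeats is not described. The p-values reflect only the spread among libraries from 1 animal. The stromal markers *VIM*, the filament protein vimentin, at 10960.1, 11334 and 11209 CPM with overexpression, 8290.3, 8851 and 8533 CPM with siRNA and 13622, 13916 and 13399 CPM in control, and *COL1A1*, a chain of collagen I, were abundant in every library, and markers of fat cells were mixed. The lipid synthesis enzyme *FASN* had 465, 454 and 447 CPM with overexpression and 659, 737 and 532 CPM with siRNA, against 891, 902 and 840.1 CPM in control cells. The adipocyte hormones were hardly detected: *ADIPOQ*, which encodes adiponectin, had 9 counts over the overexpression, 0 over the siRNA and 11 over the control libraries, and *LEP*, which encodes leptin, had 2, 0 and 0. The level of lnc*PLAAT3*-AS was not analysed here, so it could not check the labels.

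To measure the shared response, the average of both manipulated groups was tested against control in 1 fit of the 9 libraries (edgeR quasi-likelihood F test, Benjamini-Hochberg adjustment), and a gene was called changed if it differed by 2-fold or more with an adjusted p below 0.05. The average was changed for 745 genes (5.86% of those tested), 408 of them higher (3.21%) and 337 lower (2.65%). An average alone does not show a shared response: of these 745 genes 445 did not have all 6 manipulated libraries on one side, and in 257 of the 445 the fold changes of overexpression and siRNA had opposite signs. The 2467 one-sided genes were 19.4% of those tested, 9.72% above and 9.67% below control. Most of them moved little, since 2166 had an average change under 2-fold. Both conditions were met by 300 genes (2.36%), 205 higher (1.61%) and 95 lower (0.747%), and these are called shared changes from here on. Of the untested genes of low count, 98 were also one-sided, 33 above and 65 below control, and these are not described further.

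More of the shared rises than of the shared falls passed the threshold in both arms. Among the 205 genes that rose, 111 passed the threshold in each comparison on its own, 89 passed it only for siRNA against control and 5 only for overexpression against control. Among the 95 that fell, 23 passed in both, 60 only for siRNA, 10 only for overexpression and 2 in neither alone. In all tested genes, overexpression against control changed 573 genes (4.5%), 332 higher (2.61%) and 241 lower (1.89%), and siRNA against control 1932 (15.2%), 976 higher (7.67%) and 956 lower (7.52%). The median log2 fold change of the 205 genes was 1.24 with overexpression and 2.29 with siRNA, and that of the 95 genes -0.86 and -1.73, beside 0.01 and -0.00 over all tested genes. A 4-fold average change was reached by 81 of the rises and 13 of the falls, and a 16-fold change by 18 and 1.

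**Figure D1:**
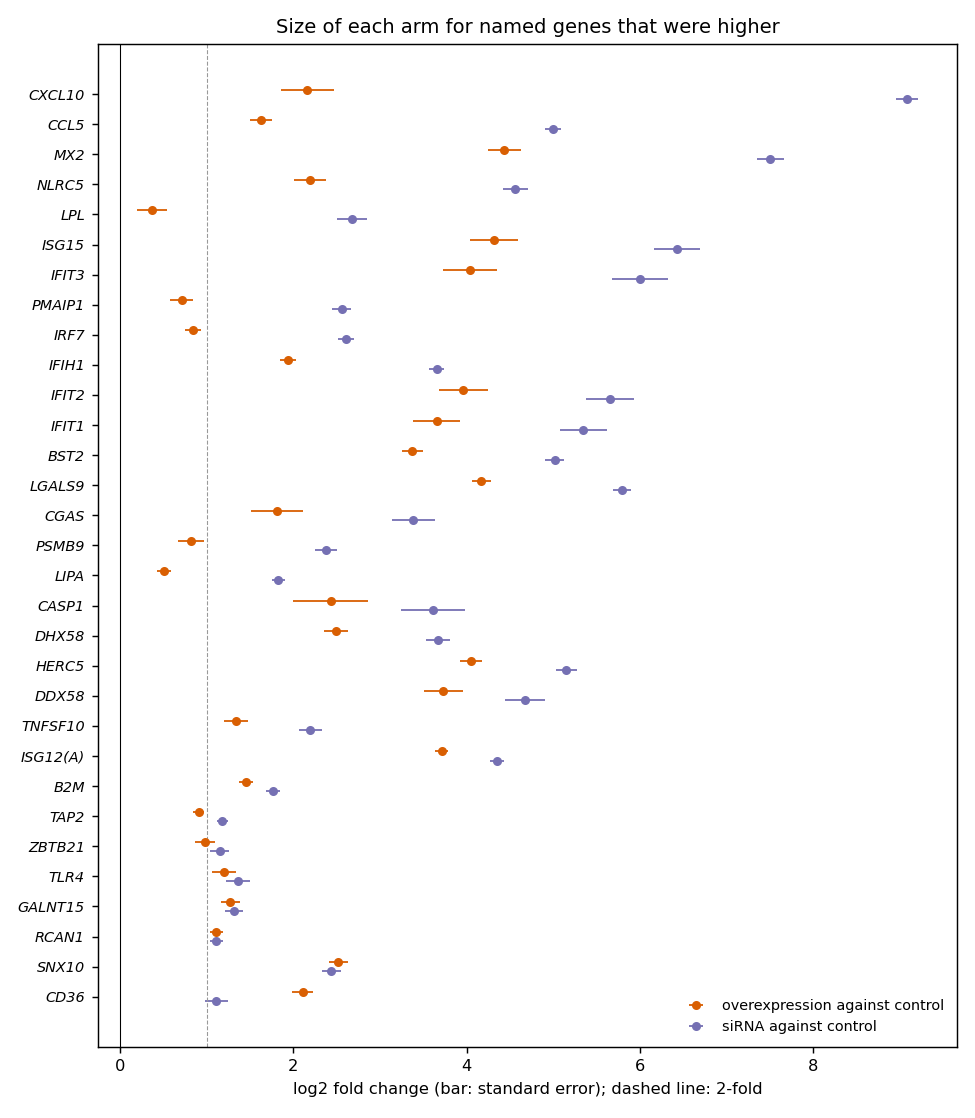
Log2 fold change against control (x axis, bars for the standard error, dashed line at 2-fold) of overexpression and of siRNA for named genes that were shared rises, ordered by the gap between the arms. The gap runs from 6.92 for *CXCL10*, further up with siRNA, to -0.996 for *CD36*, further up with overexpression, and both arms share the same control libraries.

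Whether both manipulations moved a gene by the same amount can be asked without the controls, by testing siRNA directly against overexpression. Over all genes 2380 differed in this comparison (18.7%), 1167 higher with siRNA (9.17%) and 1213 lower (9.54%). Of the 205 shared rises, 120 rose at least 2-fold further with siRNA, 4 at least 2-fold further with overexpression, and 81 did not pass. Of the 95 shared falls, 42 fell further with siRNA, 4 fell further with overexpression, and 49 did not pass. At the adjusted p alone 250 of the 300 differed, 231 of them with the larger change under siRNA and 19 under overexpression.

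Nearly all antiviral effectors of the interferon response lay above control in both arms. Of 38 tested genes in the list of interferon-stimulated effectors, 37 had all 6 manipulated libraries above all 3 control libraries (97.4%, against 9.72% of all tested genes), none lay below, and 34 were shared changes (2.36% over all tested genes). On their own, overexpression raised 31 and siRNA 37 of the 38 past the threshold. The list's median log2 fold change was 2.77 with overexpression and 3.82 with siRNA. Among genes with a mean of at least 5 CPM, the largest shared change, taken as the smaller of both arms, was that of *MX2*, a dynamin-like GTPase that restricts viruses, at 21.0, 20.4 and 20.5 CPM in the overexpression libraries, 184, 186 and 151 CPM in the siRNA libraries and 1.32, 1.11 and 0.408 CPM in the control libraries. That all 6 manipulated libraries lay beyond control follows from the rule, for this and every other shared change, and is no separate result. The average log2 fold change was 5.97 (SE 0.159, adjusted p = 9.88e-16), a 21.6-fold rise with overexpression and a 182-fold rise with siRNA.

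*ISG15*, a ubiquitin-like protein attached to other proteins during the response, had 78.9, 75.6 and 76.0 CPM in the overexpression libraries, 341, 343 and 312 CPM in the siRNA libraries and 4.13, 5.95 and 1.46 CPM in the control libraries. *HERC5*, the ligase that attaches ISG15, had 66.3, 65.2 and 67.5 CPM with overexpression and 142, 145 and 140.0 CPM with siRNA, against 4.59, 5.02 and 2.39 CPM in control cells. Average log2 fold changes were 5.37 (SE 0.255, adjusted p = 1.85e-06) for *ISG15* and 4.60 (SE 0.116, adjusted p = 3.12e-16) for *HERC5*. *USP18*, which takes ISG15 off again and damps the interferon receptor, had 113, 113 and 111 CPM with overexpression and 217, 236 and 214 CPM with siRNA, against 26.3, 29.1 and 18.2 CPM in control cells, an average change of 2.69 (adjusted p = 1.39e-10).

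The IFIT proteins, which bind foreign RNA and hinder its translation, were also among them. *IFIT3* was measured at 221, 218 and 217 CPM in the overexpression libraries, 893, 874 and 795 CPM in the siRNA libraries and 17.7, 16.3 and 5.89 CPM in the control libraries. The average log2 fold change of *IFIT3* was 5.02 (SE 0.306, adjusted p = 1.71e-05), with 4.04 for overexpression and 6.0 for siRNA. *IFIT2* (3.96 with overexpression, 5.66 with siRNA, adjusted p of the average 7.76e-06) and *IFIT1* (3.66 and 5.35, adjusted p = 9.45e-06) rose likewise. In each of the 3 genes control replicate 3 was the lowest of all libraries, at 5.89, 2.33 and 3.62 CPM.

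*BST2*, or tetherin, which holds budding viruses at the cell surface, had 17.4, 18.1 and 16.4 CPM with overexpression and 55.3, 54.1 and 52.6 CPM with siRNA, against 1.66, 1.87 and 1.46 CPM in control cells, and its average log2 fold change was 4.19 (SE 0.105, adjusted p = 1.2e-17). *LGALS9*, a secreted galectin that binds sugars on immune cells, had 40.1, 37.5 and 37.9 CPM in the overexpression libraries, 109, 123 and 125 CPM in the siRNA libraries and 2.24, 2.39 and 1.75 CPM in the control libraries. Its average change was 4.99 (SE 0.102, adjusted p = 3.47e-19). *ISG12(A)*, a small interferon-induced mitochondrial protein, stood at 351, 327 and 335 CPM with overexpression and 504, 527 and 546 CPM with siRNA, against 24.3, 28.7 and 24.3 CPM in control cells, with an average log2 fold change of 4.03 (SE 0.0716, adjusted p = 6.45e-20). All 3 control libraries lay close together in these genes and far under the manipulated ones.

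**Figure D2:**
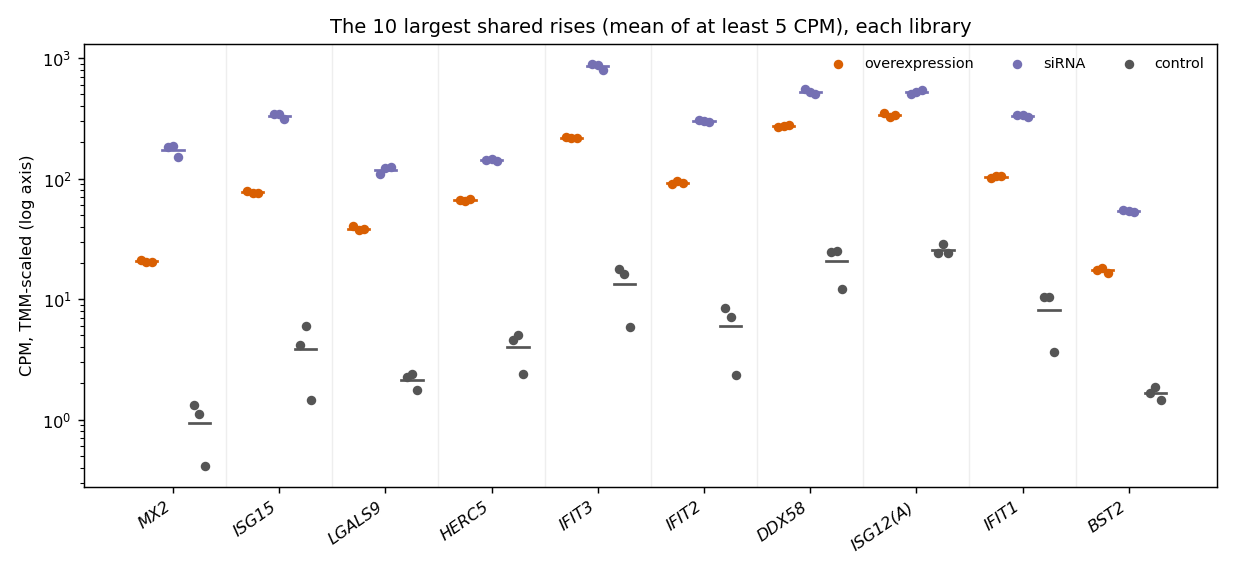
CPM (log axis) of the 10 genes with the largest shared rise, at a mean of at least 5 CPM, in each of the 9 libraries, with overexpression, siRNA and control libraries side by side and a bar at each group mean. Both manipulated groups lie above control, as the rule requires. In every gene the siRNA libraries lie above the overexpression libraries, and control replicate 3 is often the lowest point, as in *MX2* at 0.408 CPM.

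The exceptions in the effector list were few. *ISG20*, an exonuclease, was low, and its overexpression libraries overlapped control. It had 0.403, 0.344 and 0.116 CPM with overexpression and 1.55, 1.32 and 1.80 CPM with siRNA, against 0.115, 0.175 and 0.0580 CPM in control cells. *SAMHD1*, which depletes nucleotides, *SP110*, a nuclear body protein, and *PNPT1*, a mitochondrial RNA exonuclease, lay above control in all 6 libraries with average log2 fold changes of 0.37, 0.995 and 0.77, so they were not called. *SP110* at 0.995 is the listed gene just short of the 2-fold threshold, and *THY1* at -1.005 is the one just past it. The siRNA libraries were at least 2-fold over the overexpression libraries by test in 23 of the 38 effectors, as in *MX2* (log2 difference 3.07, SE 0.0981, adjusted p = 2.88e-15). For *RSAD2*, the antiviral enzyme viperin, the values were 11.7, 11.5 and 12.2 CPM in the overexpression libraries, 247, 223 and 235 CPM in the siRNA libraries and 3.67, 2.69 and 0.408 CPM in the control libraries.

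Summed over the effector list, the level was 4023 to 4080 CPM in the overexpression libraries, 8354 to 8768 CPM in the siRNA libraries and 616 to 788 CPM in the control libraries, control replicate 3 being the lowest. That library was the lowest of the controls in 34 of the 38 genes, so control cells also differed among themselves in this list. Without control replicate 3 the average log2 fold change of *MX2* was 5.61 and that of *ISG15* 4.98. The count of effectors above control was 37 to 38 whichever library was left out. Dropping a library relaxes the rule, so this count could hardly fall and does not measure stability. In bulk RNA, fewer cells of a type and less RNA per cell cannot be told apart, so these values do not say what share of the cells responded.

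Sensors that start the pathway were among the shared rises, and the adaptors that follow them stayed under 2-fold. Of 15 tested sensors and adaptors, 8 lay above control in all 6 libraries (53.3%, against 9.72% of all tested genes), none lay below, and 6 were shared changes (2.36% over all tested genes), with a list median of 0.64 for overexpression and 0.84 for siRNA. *DDX58*, which encodes RIG-I and is uncertain because its estimated counts were not whole, had 269, 275 and 279 CPM in the overexpression libraries, 552, 526 and 508 CPM in the siRNA libraries and 24.7, 24.9 and 12.2 CPM in the control libraries. *DDX58* thus rose 13.3-fold with overexpression and 25.6-fold with siRNA (average log2 fold change 4.21, SE 0.219, adjusted p = 3.71e-06). *IFIH1*, which encodes MDA5, had 38.1, 35.2 and 36.2 CPM with overexpression and 119, 122 and 119.6 CPM with siRNA, against 11.1, 9.75 and 7.70 CPM in control cells (average log2 fold change 2.80, SE 0.0837, adjusted p = 2.04e-16). *DHX58*, the regulator LGP2, had 69.1, 64.5 and 63.1 CPM with overexpression and 149.8, 156 and 139 CPM with siRNA, against 12.5, 14.5 and 8.05 CPM in control cells (average log2 fold change 3.08, SE 0.127, adjusted p = 6.32e-10).

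*CGAS*, the cytosolic DNA sensor, was rare, at 1.44, 1.09 and 1.39 CPM in the overexpression libraries, 4.12, 3.66 and 3.96 CPM in the siRNA libraries and 0.344, 0.409 and 0.350 CPM in the control libraries. Its average log2 fold change was 2.60 (SE 0.248, adjusted p = 2.89e-08). *TRIM25*, which activates RIG-I, and *ZC3HAV1*, the zinc finger antiviral protein, were shared rises of 1.33 and 1.07. The adaptors *MAVS*, *MYD88* and the transcription factor *IRF3*, which pass the signal on, had average log2 fold changes of -0.19, -0.18 and -0.20. *STING1* (0.52), the adaptor for cGAS, *TBK1* (0.49), the kinase that follows, and *TLR3* (0.59), a receptor for double-stranded RNA, were also under 2-fold.

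Interferon beta was close to the limit of detection. *IFNB1*, its gene, had 1 count in all with overexpression, 5 with siRNA and 0 in control, and could not be tested. Among 16 tested genes of the receptor and JAK-STAT list, 6 lay above (37.5%, against 9.72% of all tested genes) and 1 below control in all libraries (6.25%, against 9.67%), and 2 were shared changes, *IRF7* among them, beside 2.36% of all tested genes. *IRF7*, which amplifies interferon production, had 46.3, 44.3 and 45.4 CPM with overexpression and 152, 171 and 139 CPM with siRNA, against 23.3, 29.5 and 23.0 CPM in control cells (average log2 fold change 1.73, SE 0.0826, adjusted p = 1.29e-12), a 1.79-fold rise with overexpression and a 6.10-fold rise with siRNA. *STAT2* and *IRF9*, parts of the complex that acts downstream of the receptor, lay above control at average changes of 0.65 and 0.95. The receptor chains *IFNAR1* (-0.14) and *IFNAR2* (0.12) and the kinase *JAK1* (0.16) did not have all 6 manipulated libraries on one side. *IFNAR2* lay below every control library with overexpression (log2 fold change -0.38) and above every one with siRNA (0.61). *JAK1* lay above every control library only with siRNA (0.30), and *IFNAR1* overlapped control in both arms.

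Most genes of MHC class I antigen presentation lay above control. Of 20 tested entries, 16 lay above control in all 6 manipulated libraries (80.0%, against 9.72% of all tested genes), none below, and 9 were shared changes (2.36% over all tested genes), with list medians of 0.44 for overexpression and 1.17 for siRNA. *NLRC5*, the transactivator of MHC class I genes, had 4.26, 4.76 and 4.06 CPM in the overexpression libraries, 22.0, 24.2 and 21.5 CPM in the siRNA libraries and 0.861, 1.17 and 0.817 CPM in the control libraries. Its average log2 fold change was 3.38 (SE 0.152, adjusted p = 1.6e-13). *PSMB9*, a subunit of the immunoproteasome that cuts peptides, had 4.20, 4.30 and 4.41 CPM with overexpression and 13.3, 12.5 and 12.2 CPM with siRNA, against 2.18, 2.57 and 2.57 CPM in control cells (average log2 fold change 1.60, SE 0.122, adjusted p = 9.38e-10), and *TAP2*, a chain of the peptide transporter, had 91.7, 91.7 and 85.5 CPM with overexpression and 115, 111 and 99.8 CPM with siRNA, against 46.2, 49.6 and 47.7 CPM in control cells (average log2 fold change 1.04, SE 0.0585, adjusted p = 6.16e-12). *B2M*, the light chain of MHC class I, is listed as 2 entries with counts that were not whole, and both rose, with the entry of the larger shared change at 327, 331 and 348 CPM with overexpression and 422, 351 and 475 CPM with siRNA, against 128, 120.2 and 119.6 CPM in control cells (average log2 fold change 1.61, SE 0.0755, adjusted p = 9.84e-13). The heavy chains *SLA-1*, *SLA-2* and *SLA-3* rose by averages of 1.17, 1.28 and 1.21, and reads of these near-identical genes may be shared between them.

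The chemokines that interferon induces were shared in direction, with a large gap between the arms. *CXCL10*, which attracts T cells, had 1.55, 1.66 and 1.28 CPM in the overexpression libraries, 187, 173 and 187 CPM in the siRNA libraries and 0.516, 0.234 and 0.233 CPM in the control libraries. The overexpression libraries exceeded control 4.48-fold and the siRNA libraries 543-fold, and siRNA minus overexpression was 6.92 (SE 0.105, adjusted p = 9.36e-22) on the log2 scale. *CCL5*, another chemokine for T cells, had 7.94, 8.95 and 7.59 CPM with overexpression and 82.4, 86.8 and 83.7 CPM with siRNA, against 2.35, 2.63 and 2.92 CPM in control cells, with an average log2 fold change of 3.31 (SE 0.101, adjusted p = 2.89e-16) and a difference between the arms of 3.37 (SE 0.0802, adjusted p = 7.8e-19). These 2 were the only shared changes among 24 tested NF-kB and inflammatory response genes, beside 2.36% of all tested genes. In that list the median log2 fold change was -0.58 with overexpression and 2.76 with siRNA, and its summed level was 923 to 952 CPM with overexpression, 8032 to 8720 CPM with siRNA and 1047 to 1243 CPM in control, so the inflammatory genes as a group did not share a direction.

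Some genes of cell death also lay above control. Of 15 tested, 8 were above (53.3%, against 9.72% of all tested genes) and 1 below in all 6 libraries (6.67%, against 9.67%), and 3 were shared changes, beside 2.36% of all tested genes: *CASP1*, the inflammasome caspase, *TNFSF10*, the death ligand TRAIL, and *PMAIP1*, the BH3-only protein NOXA. *TNFSF10* had 17.2, 19.9 and 18.2 CPM in the overexpression libraries, 35.5, 32.0 and 32.6 CPM in the siRNA libraries and 9.52, 7.06 and 5.25 CPM in the control libraries, an average log2 fold change of 1.77 (SE 0.123, adjusted p = 1.35e-09). *PMAIP1* had 5.52, 6.14 and 5.39 CPM with overexpression and 21.7, 18.7 and 20.9 CPM with siRNA, against 3.67, 3.50 and 3.21 CPM in control cells (average log2 fold change 1.64, SE 0.11, adjusted p = 1.22e-10), and *CASP1*, at low counts, had 0.633, 1.09 and 1.51 CPM with overexpression and 2.21, 2.52 and 2.62 CPM with siRNA, against 0.172, 0.117 and 0.292 CPM in control cells (average log2 fold change 3.02, SE 0.367, adjusted p = 8.77e-07). The initiator caspase *CASP8* and the death receptor *FAS* lay above control with average log2 fold changes of 0.47 and 0.84, both under 2-fold.

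Lists of other stress programmes held no shared change, which for lists of 9 to 18 genes is near the 2.36% over all tested genes. Of p53 targets 4 of 11 lay above control (36.4%, against 9.72% of all tested genes) and 1 below (9.09%, against 9.67%). Of NRF2 antioxidant targets 3 of 13 lay above (23.1%) and 1 below (7.69%), and of heat shock genes 2 of 9 above (22.2%) and 1 below (11.1%). The unfolded protein and integrated stress response had 0 of 18 genes above and 2 below control (11.1%, against 9.67%), and immediate early genes 1 of 12 above (8.33%). None of the 4 tested targets of the aryl hydrocarbon receptor had all 6 manipulated libraries on one side. On their own, overexpression lowered 2 of them and siRNA raised 1 past the threshold (1.89% and 7.67% of all tested genes). *AHRR* lay below every control library with overexpression (log2 fold change -1.19) and above every one with siRNA (0.87). Cell cycle genes had 2 of 25 on each side (8%, against 9.72% above and 9.67% below over all tested genes). Collagens and matrix genes had 2 of 30 above (6.67%) and 3 below (10%). Of cholesterol synthesis genes 1 of 22 lay above (4.55%) and 6 below (27.3%, against 9.67%). These lists again held no shared change. Of 23 lysosome genes 7 lay above control (30.4%, against 9.72% of all tested genes) and none below. The 1 shared change among them, beside 2.36% of all tested genes, was *LIPA*, the lysosomal acid lipase that releases cholesterol and fatty acids. *LIPA* had 30.6, 29.4 and 34.7 CPM with overexpression and 77.4, 82.7 and 76.5 CPM with siRNA, against 23.2, 20.3 and 23.1 CPM in control cells (average log2 fold change 1.17, SE 0.0699, adjusted p = 1.81e-11).

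**Figure D3:**
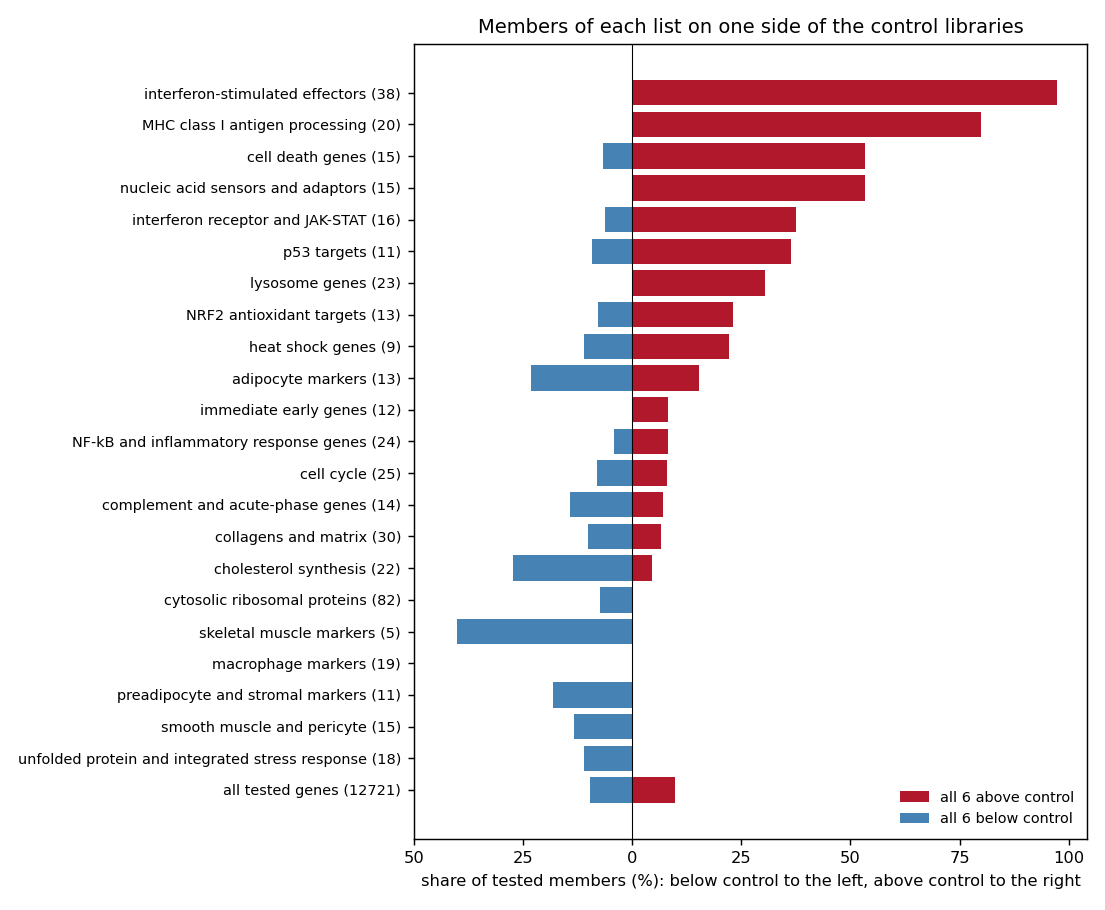
Share of the tested genes of each list (percent, x axis) that lay above or below control in all 6 manipulated libraries, with all 12721 tested genes at the foot. The interferon-stimulated effectors reach 97.4% above and MHC class I genes 80.0%, whereas all tested genes stand at 9.72% above and 9.67% below.

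Of the 205 shared rises 51 belonged to the 4 interferon lists (effectors, sensors, receptor and MHC class I). These lists held 38, 15, 16 and 20 of the 12721 tested entries, and were chosen with earlier results of these data known. The rises whose arms were closest in size are given next. They were chosen on the difference between the arms, so its small size and large p-values follow from that choice. *SNX10*, a sorting nexin of endosomes, had 17.1, 17.1 and 18.1 CPM in the overexpression libraries, 17.0, 15.9 and 16.7 CPM in the siRNA libraries and 3.10, 2.80 and 3.21 CPM in the control libraries. The manipulated groups overlapped each other and lay 5.74-fold (overexpression) and 5.43-fold (siRNA) above control, with an average log2 fold change of 2.48 (SE 0.0989, adjusted p = 2.27e-14) and a difference between the arms of -0.08 (SE 0.0831, adjusted p = 0.407). *RCAN1*, an inhibitor of the phosphatase calcineurin, had 435, 428 and 439 CPM in the overexpression libraries, 385, 412 and 503 CPM in the siRNA libraries and 204, 199 and 199 CPM in the control libraries. Its average change was 1.11 (SE 0.0679, adjusted p = 2.56e-11), and siRNA minus overexpression was -0.0021 (SE 0.0739, adjusted p = 0.981).

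*TLR4*, the receptor for bacterial lipopolysaccharide, had 8.45, 8.32 and 10.3 CPM with overexpression and 10.9, 9.11 and 10.3 CPM with siRNA, against 4.30, 4.32 and 3.15 CPM in control cells, with an average of 1.28 (SE 0.125, adjusted p = 3.95e-08) and a difference between the arms of 0.16 (SE 0.122, adjusted p = 0.239). *GALNT15*, an enzyme that starts O-linked glycosylation, had 11.7, 12.3 and 12.2 CPM with overexpression and 12.5, 12.1 and 12.6 CPM with siRNA, against 5.39, 4.90 and 4.67 CPM in control cells (average log2 fold change 1.29, SE 0.0937, adjusted p = 3.78e-10). *ZBTB21*, a zinc finger protein, rose by 1.07 on average, and fell short of 2-fold at 0.98 when control replicate 1 was left out. A difference that did not pass the test does not show that the arms were equal, and the SE of each difference gives its precision.

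The shared falls had a median average log2 fold change of -1.29, against 1.70 for the rises. Of the 95 falls 6 belonged to any list, and of the 205 rises 59, with 51 of these in the 4 interferon lists. The share of all tested genes that belonged to any list was not counted. The lists were chosen with earlier results of these data known, so these counts depend on that choice and do not compare falls with rises. *XPNPEP2*, an aminopeptidase of the cell surface, had the largest shared fall among genes with a mean of at least 5 CPM, at 5.75, 5.62 and 6.43 CPM in the overexpression libraries, 4.18, 5.93 and 3.26 CPM in the siRNA libraries and 16.9, 19.9 and 22.3 CPM in the control libraries. Its average log2 fold change was -1.94 (SE 0.121, adjusted p = 1.05e-10). *RFLNB*, a partner of the actin crosslinker filamin, had 4.14, 4.36 and 4.17 CPM with overexpression and 2.98, 3.36 and 2.62 CPM with siRNA, against 10.3, 10.2 and 9.22 CPM in control cells (average log2 fold change -1.48, SE 0.105, adjusted p = 2.89e-10). *SNED1*, a glycoprotein of the extracellular matrix, had 62.9, 66.1 and 61.5 CPM with overexpression and 42.6, 47.9 and 32.8 CPM with siRNA, against 123, 119 and 125 CPM in control cells (average log2 fold change -1.26, SE 0.0748, adjusted p = 1.55e-10).

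*VGF*, the precursor of secreted neuropeptides, and *TMEM132E*, a membrane protein, fell further with overexpression as estimated. *VGF* had 31.6, 31.3 and 33.5 CPM in the overexpression libraries, 47.5, 49.1 and 52.5 CPM in the siRNA libraries and 76.7, 88.8 and 117 CPM in the control libraries, with an average log2 fold change of -1.23 (SE 0.105, adjusted p = 1.94e-06) and a difference between the arms of 0.63 (SE 0.133, adjusted p = 0.00139). For *TMEM132E* the values were 21.4, 21.7 and 22.7 CPM in the overexpression libraries, 39.2, 36.7 and 36.7 CPM in the siRNA libraries and 81.5, 93.8 and 41.3 CPM in the control libraries. Control replicate 3 of *TMEM132E* lay close to the siRNA libraries, the average change was -1.33 (SE 0.247, adjusted p = 0.00454), and it was -1.61 without that library. *PRSS35*, a protein of the serine protease family, *GALT*, an enzyme of galactose breakdown, *LYRM1* and *C1H9orf16* completed the 10 with average changes of -1.26, -1.08, -1.19 and -1.05. *C1H9orf16* was -0.99 without control replicate 3, short of the threshold.

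*COL17A1*, a collagen of epithelial hemidesmosomes, was also among the largest shared falls but its call depended on single libraries. It had 13.0, 11.8 and 13.3 CPM in the overexpression libraries, 4.60, 5.99 and 22.0 CPM in the siRNA libraries and 23.8, 26.1 and 68.0 CPM in the control libraries, and siRNA replicate 3 and control replicate 3 were each far above their own group. The average log2 fold change was -1.74 (SE 0.551, adjusted p = 0.0403). Without control replicate 3 it was -1.08 with an adjusted p of 0.157, and over all alternatives the adjusted p lay between 0.0103 and 0.167.

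**Figure D4:**
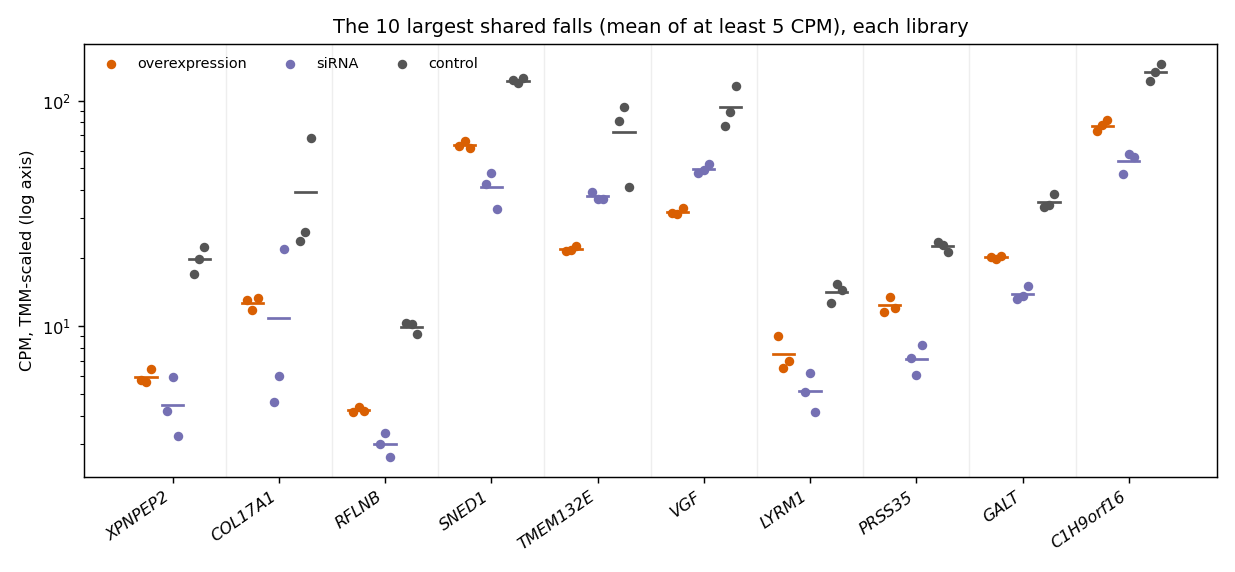
CPM (log axis) of the 10 genes with the largest shared fall, at a mean of at least 5 CPM, in each library, grouped as overexpression, siRNA and control with a bar at each group mean. Manipulated libraries lie below control in every gene, as the rule requires, with narrow gaps in *COL17A1* (22.0 CPM in siRNA replicate 3 against 23.8 CPM in control replicate 1) and *TMEM132E*.

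Genes of the fat cell lineage included shared changes in both directions. Of 13 tested adipocyte markers, 2 lay above and 3 below control in all 6 libraries (15.4% and 23.1%, against 9.72% and 9.67% of all tested genes), 2 were shared rises and 1 a shared fall (shared changes were 2.36% of all tested genes), with list medians of 0.09 for overexpression and -0.33 for siRNA. *CD36*, the fatty acid transporter, which had counts that were not whole, had 13.7, 12.8 and 13.6 CPM in the overexpression libraries, 6.63, 5.99 and 7.45 CPM in the siRNA libraries and 3.21, 3.33 and 2.74 CPM in the control libraries. It rose in both arms (average log2 fold change 1.61, SE 0.117, adjusted p = 4.01e-10), and further with overexpression (siRNA minus overexpression -0.996, SE 0.109, adjusted p = 6.75e-08). *LPL*, the lipoprotein lipase, had 84.7, 83.2 and 84.0 CPM with overexpression and 486, 453 and 313 CPM with siRNA, against 63.1, 58.0 and 74.2 CPM in control cells, so its average of 1.52 (SE 0.157, adjusted p = 1.05e-04) came mainly from siRNA, overexpression alone giving 0.37 (adjusted p = 0.125).

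*PPARG*, the transcription factor that drives adipogenesis, lay below control in both arms. It had 5.46, 5.85 and 5.28 CPM in the overexpression libraries, 1.67, 1.86 and 1.51 CPM in the siRNA libraries and 7.63, 7.65 and 7.06 CPM in the control libraries, with log2 fold changes of -0.43 for overexpression and -2.14 for siRNA and an average of -1.29 (SE 0.114, adjusted p = 9.25e-09). *SCD* and *FASN*, enzymes of fatty acid synthesis, lay below control with average log2 fold changes of -0.70 and -0.70, under 2-fold. Of 11 tested preadipocyte and stromal markers, 2 lay below control (18.2%, against 9.67% of all tested genes), 0 above, and 9 overlapped it. The list's median log2 fold change was -0.21 with overexpression and 0.51 with siRNA, so these markers as a group did not share a fall. *THY1*, a surface antigen of stromal cells, was the shared change among them (2.36% over all tested genes). It had 541, 512 and 524 CPM with overexpression and 174, 189.6 and 166 CPM with siRNA, against 579, 606 and 650.0 CPM in control cells (average log2 fold change -1.005, SE 0.0531, adjusted p = 2.39e-12). That call was lost when overexpression replicate 2, siRNA replicate 1, siRNA replicate 3 or control replicate 3 was left out. *VIM* lay below control at -0.48.

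Contractile genes among the shared falls were lowest with siRNA, and their lists as a whole did not fall with overexpression. Of 15 tested smooth muscle and pericyte genes, 2 lay below control (13.3%, against 9.67% of all tested genes), 0 above, and 13 overlapped it. The list's median log2 fold change was 0.21 with overexpression and -2.125 with siRNA. *TAGLN*, the actin-binding protein transgelin, was the shared change among the 15 (2.36% over all tested genes). It had 3966, 4054 and 4035 CPM in the overexpression libraries, 969.6, 1102 and 1028 CPM in the siRNA libraries and 4129.6, 4636 and 4758 CPM in the control libraries. Its log2 fold changes were -0.17 for overexpression and -2.13 for siRNA, so overexpression lay only slightly below control. *PTX3*, a pentraxin of innate immunity, was the shared change among 14 complement and acute-phase genes (2.36% over all tested genes). It had 37.9, 41.7 and 40.2 CPM with overexpression and 11.1, 12.9 and 12.5 CPM with siRNA, against 54.8, 57.1 and 53.1 CPM in control cells (average log2 fold change -1.32, SE 0.0601, adjusted p = 1.97e-13). Skeletal muscle markers summed to 1347 to 1395 CPM with overexpression, 1.13 to 1.81 CPM with siRNA and 650 to 818 CPM in control. Nearly all of this was *DES*, the filament protein desmin, which smooth muscle also makes, at 1384, 1343 and 1336 CPM with overexpression and 0.537, 0.899 and 0.757 CPM with siRNA, against 735, 796 and 639.6 CPM in control cells. Of the 5 tested, *MYL1*, a myosin light chain, and *ACTC1*, the cardiac actin, were shared falls, beside 0.747% of all tested genes. The other 3 overlapped control, and the list's median log2 fold change was 0.04 with overexpression and -5.22 with siRNA. *MYL1* had 5.64, 5.33 and 6.09 CPM with overexpression and 0.0597, 0 and 0.233 CPM with siRNA, against 8.89, 7.88 and 6.47 CPM in control cells, and *ACTC1* had 1.27, 1.03 and 1.22 CPM with overexpression and 0.119, 0.180 and 0.117 CPM with siRNA, against 6.14, 8.35 and 1.75 CPM in control cells, so both were near the limit of detection with siRNA and below control with overexpression.

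Markers of other cell types were set beside the interferon genes. None of 19 tested macrophage markers (of 25 listed) lay on one side of control. For *CD163*, *C1QB* and *PTPRC* this was fixed, since they had no count with siRNA or in control and were tested only through the overexpression libraries. The summed level of the list was 211 to 217 CPM with overexpression, 97.8 to 102.0 CPM with siRNA and 117 to 123 CPM in control. The list's median log2 fold change was 3.93 with overexpression and 0.00 with siRNA. The siRNA median includes these genes without a count in either group, which measure no change. The overexpression median was raised by the filter as well. *C1QA* (257, 2 and 0 counts with overexpression, siRNA and in control), *C1QC* (351, 0 and 1) and *MSR1* (90, 0 and 1) also passed only through the overexpression libraries. A high overexpression median was therefore partly fixed in advance and is no result about the list. The sum was carried by few genes: *CD86*, a costimulatory protein, had 122, 124 and 127 CPM with overexpression and 32.7, 30.9 and 33.5 CPM with siRNA, against 74.7, 68.9 and 57.3 CPM in control cells. *CD14*, a co-receptor for lipopolysaccharide, had 27.3, 29.1 and 25.6 CPM with overexpression and 44.0, 51.5 and 46.2 CPM with siRNA, against 33.4, 34.6 and 42.2 CPM in control cells. The part of these markers in the interferon result was not tested. The defining markers *CD163*, *C1QA*, *C1QB*, *ADGRE1*, *PTPRC*, *SIGLEC1*, *TREM2* and *VSIG4* had no count in control. *CD163*, a macrophage scavenger receptor, had 106 counts in all with overexpression and 0 with siRNA. Endothelial and lymphocyte markers had 1 tested gene each and erythroid markers none. Neither tested gene had all manipulated libraries on one side of control.

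Epithelial genes, a list of 33 chosen after the values were seen with *COL17A1* and *KRT19* among its falls, moved with individual libraries. Of 20 tested, none lay above control, 7 lay below and 6 of these were shared falls. Over all tested genes 9.72% lay above, 9.67% lay below and 0.747% were shared falls. Their summed level was 70.1, 66.1 and 69.1 CPM in the overexpression libraries, 40.4, 39.8 and 112 CPM in the siRNA libraries and 106, 111 and 258 CPM in the control libraries. Replicate 3 was the highest siRNA library in 17 and the highest control library in 16 of the 20 genes. Leaving out siRNA replicate 3 gave 15 shared falls in this list and leaving out control replicate 3 gave 5, and the part of the epithelial genes in the other shared falls was not tested.

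**Figure D5:**
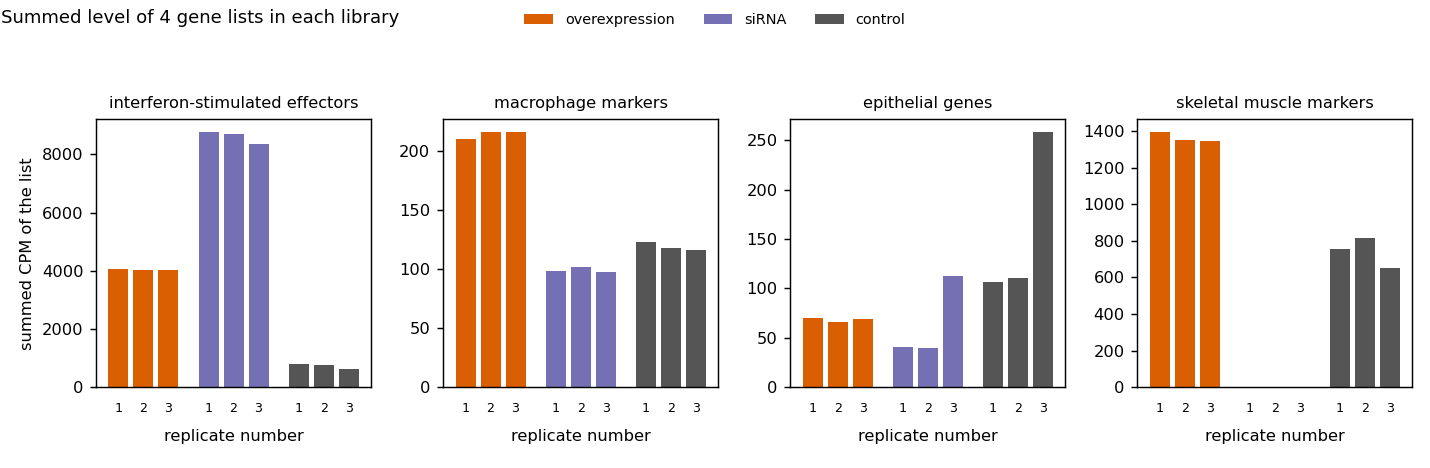
Summed CPM (y axes from 0, one scale per panel) of 4 gene lists in each library, the bars numbered by replicate within overexpression, siRNA and control. Interferon-stimulated effectors are high in all 6 manipulated libraries, macrophage markers in the overexpression libraries, epithelial genes in siRNA replicate 3 and control replicate 3 within their groups, and skeletal muscle markers, nearly all *DES*, are near 0 with siRNA.

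Ribosomal protein genes served as a group that all cells express. Of 82 cytosolic ribosomal protein genes none lay above control, beside 9.72% of all tested genes, and 6 lay below (7.32%, against 9.67%). None was a shared change, beside 2.36% of all tested genes. Their summed level was 44878 to 45437 CPM with overexpression, 67040 to 71263 CPM with siRNA and 64639 to 76608 CPM in control, so the overexpression libraries stood apart in this group while the siRNA libraries overlapped control.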

How the data were processed

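Groups were taken from the sample labels. Reads came from a BGISEQ500 instrument, with an oligo(dT) primer and template switching per the methods and removal of ribosomal RNA per the labels, and the authors named FastQC and HISAT. The authors deposited an estimated count and an FPKM value (scaled for gene length and sequencing depth) for each of 16562 genes in each of 9 libraries. Which tool counted the reads, on what build, with or without strand, and the authors' test is not given in the sources used here. Of the estimated counts, 5.38% were not whole, genes with such values are called uncertain, and all were rounded.

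Tests used edgeR 4.0.16 in R 4.3.3 (filterByExpr, TMM, robust quasi-likelihood F test, biological coefficient of variation 0.0607) on 12721 genes, and the script was tested on simulated data. Each standard error was derived as the size of the log2 fold change over the root of its F value. Alternatives were DESeq2 1.42.0, its size factors, library totals, no filter or a stricter one, limma 3.58.1 on log2(FPKM + 1), other thresholds, a replicate block, the overexpression libraries summed, and each library left out. One-sidedness was judged on TMM-scaled CPM and is a count with no test. The members and the gene lists were chosen with earlier results of these data known, so the lists are described by counts and medians only.

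Genes are named by rule among shared changes with a symbol: with a mean of at least 5 CPM, the 10 in each direction with the largest shared change (the smaller of both arms) and the 5 in each direction whose arms were closest, and up to 4 of each list whatever their mean. *USP18*, *RSAD2*, *SP110*, *SAMHD1*, *PNPT1*, *ISG20*, *TRIM25* and the other list members given with values are outside it, and their choice followed sight of the values. Of the tested symbols 12383 are in the RefSeq table of Sscrofa11.1, used for names only. Some genes that the rule names or that the lists hold are not reported here. Promoter sequences were not used here.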

Additional observations from a re-analysis of the deposited data

Results flagged for a closer look

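Although they lay on the same side of control, 25 of the 48 named genes differed between the manipulated groups by at least 2-fold in the direct test of siRNA against overexpression (edgeR quasi-likelihood F test, adjusted p between 9.36e-22 and 4.76e-04, 3 libraries each), a comparison in which 18.7% of all tested genes differed. The log2 level with siRNA minus that with overexpression was positive for *CXCL10* 6.92, *CCL5* 3.37, *MX2* 3.07, *NLRC5* 2.37, *LPL* 2.31, *ISG15* 2.11, *IFIT3* 1.96, *PMAIP1* 1.84, *IRF7* 1.76, *IFIH1* 1.72, *IFIT2* 1.70, *IFIT1* 1.69, *BST2* 1.64, *LGALS9* 1.63, *CGAS* 1.58, *PSMB9* 1.56, *LIPA* 1.32, *CASP1* 1.18, *DHX58* 1.18 and *HERC5* 1.10. It was negative for *THY1* -1.57, *PPARG* -1.71, *PTX3* -1.72, *TAGLN* -1.96 and *MYL1* -5.75. The genes were named for their shared change, and the cause of the differences was not tested.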

How the results depend on the processing

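Of the 300 shared changes, 205 rises and 95 falls, DESeq2 gave 299 (205 and 94) and no filter 364 (226 and 138), and the 745 changed averages became 732 and 903. With a stricter filter (10 CPM in 3 libraries) 366 averages changed, 239 higher and 127 lower, with 180 shared changes of which 34 were falls. With limma on log2(FPKM + 1), which changes the values and the test together, these were 321, 239 and 82, with 165 shared changes, 131 rises and 34 falls, of which 100 differed between siRNA and overexpression against 170 in the main result. At the adjusted p alone the averages were 6231 (3002 higher and 3229 lower), the shared changes 2374 (1185 and 1189) and those that differed between the arms 1249. With a 4-fold threshold they were 183 (134 and 49), 94 (81 and 13) and 30. Requiring both arms to pass gave 141 averages (114 and 27) and 134 shared changes (111 and 23). Leaving out each library in turn gave 722 to 798 changed averages (398 to 453 higher, 316 to 389 lower), 2601 to 3695 one-sided genes (1294 to 1813 above, 1307 to 1882 below), 313 to 382 shared changes (210 to 255 rises, 99 to 139 falls), 171 to 237 of them different between the arms, and 37 to 38 effectors above control. One-sided counts can only grow when a library is dropped, and the largest, 3695, came without control replicate 1. Summing the overexpression libraries, which lay so close, gave 780 changed averages, 3176 one-sided genes and 404 shared changes (262 and 142). Of the one-sided genes 50.1% lay above control, against 51.6% with DESeq2 size factors and 45.6% with library totals alone, and the median over all genes shifted by under 0.1 in each scaling. Replicate numbers did not pair the samples (correlations of same-numbered libraries -0.0981 to 0.123), and a fit with a replicate block found 757 averages and 301 shared changes (205 and 96), 170 of them different between the arms. No named gene reversed its direction under any alternative. Calls were lost for *COL17A1*, *THY1*, *ZBTB21* and *C1H9orf16* in some leave-one-out fits and for *GALNT15*, *TLR4*, *ZBTB21*, *RFLNB* and *PPARG* with limma on log2(FPKM + 1).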

Other observations

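Of the shared changes outside the lists, 5 genes of secreted proteases were picked after their values were seen, with no count over the whole family, and the list of collagens and matrix genes held no shared change. *MMP1*, the interstitial collagenase, had 317, 318 and 311 CPM in the overexpression libraries, 1247, 1223 and 1612 CPM in the siRNA libraries and 119, 114 and 169 CPM in the control libraries, an average log2 fold change of 2.29 (SE 0.159, adjusted p = 8.03e-06). *MMP9*, a gelatinase, had 32.4, 32.8 and 34.0 CPM with overexpression and 11, 13.2 and 29.5 CPM with siRNA, against 4.71, 6.95 and 10.2 CPM in control cells (average log2 fold change 1.74, SE 0.409, adjusted p = 0.0128), with siRNA replicate 3 well above the other siRNA libraries. *ADAMTS1* and *ADAMTS5*, proteases that cut proteoglycans, rose by averages of 2.0 and 1.89. *MMP13*, another collagenase, had an average log2 fold change of -1.55 (adjusted p = 0.0327).

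Other shared changes outside the rule for named genes were also picked after their values were seen. *LGALS3BP*, a secreted glycoprotein that binds galectins, had 731, 702 and 709.6 CPM with overexpression and 1259, 1337 and 1212 CPM with siRNA, against 168, 184 and 179 CPM in control cells (average log2 fold change 2.43, SE 0.0589, adjusted p = 7.18e-18). *C5AR1*, the receptor of complement C5a, rose further with overexpression, at 1.84, 1.95 and 1.97 CPM with overexpression and 0.895, 0.779 and 0.582 CPM with siRNA, against 0.115, 0.117 and 0 CPM in control cells. *IDO1*, which breaks down tryptophan, had 0.230, 0.229 and 0.464 CPM with overexpression and 3.40, 2.64 and 3.49 CPM with siRNA, against 0.0574, 0.0584 and 0 CPM in control cells. *ABCG1*, a cholesterol exporter, fell with both, at 0.287, 0.287 and 0.0580 CPM with overexpression and 2.45, 2.70 and 2.39 CPM with siRNA, against 6.02, 6.48 and 5.42 CPM in control cells, and further with overexpression (siRNA minus overexpression 3.53, SE 0.324, adjusted p = 4.71e-09). *GIMAP1*, a GTPase known from lymphocytes, had 26 counts in all with overexpression, 167 with siRNA and 0 in control, which is, taking 3 counts in the whole control group as the floor, at least 8.6-fold higher with overexpression and at least 56.9-fold higher with siRNA, from counts that were not whole.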
